A study of Mus musculus with 12 samples.

Results

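The integrated stress response and the serine synthesis pathway were followed through 10 genes in mouse liver: Asns, Atf4, Atf5, Ddit3, Trib3, Chac1, Psat1, Phgdh, Psph and Sesn2. The genes were found by their symbols in the table of raw gene counts, where they occupied 11 of 55421 entries, because Ddit3 is listed under 2 identifiers. The second Ddit3 identifier (ENSMUSG00000116429.1) held 0 counts in every library. Of the 10 genes, 9 passed the filter on low counts and were tested. Phgdh did not pass and is described by its counts.

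Liver RNA came from adult male C57BL/6 mice of 2 strains, Fra1hep and Fra2hep, with 3 mutants and 3 littermate controls each. The mutants switch on a transgene for an AP-1 subunit, Fra-1 (gene Fosl1) or Fra-2 (gene Fosl2), when doxycycline is withdrawn at 3 weeks of age. The controls of both strains went through the same withdrawal. Titles give 2 months for every library, whereas the treatment label of the Fra2 mutants reads 9 months and that of the other groups 2 months. Transgene and duration therefore cannot be told apart in the Fra2 mutants if the treatment label is right. The labels name neither the alleles nor the promoter that drives the transgene. The 12 libraries held 16834041 to 20464807 counts, and albumin took 3.54% to 5.37% of them in the Fra2 mutants, 7.47% to 9.75% in the Fra2 controls and 3.69% to 8.32% in the Fra1 libraries. The 11 hepatocyte markers found, of 12 listed, summed lower in the Fra2 mutants (84300 to 94900 CPM) than in the Fra2 controls (123000 to 149000 CPM), without overlap. Of all tested genes, 17.5% had Fra2 groups that did not overlap. Taken singly, 7 of the 11 markers had positive and 4 negative log2 fold changes in the Fra2 mutants. In the Fra1 strain the sums overlapped, at 75900 to 132000 CPM in the mutants and 108000 to 148000 CPM in the controls. Alb, which is part of these sums, ranged from 34400 to 101000 CPM (counts relative to the library total, scaled by TMM factors). As a check of the labels, Fosl1 counts were 172, 193 and 252 in Fra1 mutants against 0, 0 and 1 in Fra1 controls. Fosl2 counts were 6821, 7718 and 8101 in Fra2 mutants against 221, 861 and 297 in Fra2 controls. Each mutant group thus carried the transcript in its label. Fra2 control 1 stood apart from the other Fra2 controls, with 11 Fosl1 counts against 1 and 1. Values that rest on it are given with and without it. In Fosl2 it was Fra2 control 2 that stood apart, at 48.1 CPM against 12.2 and 16 CPM in Fra2 controls 1 and 3. The Fra2 mutants had 398 to 421 CPM of Fosl2.

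In the integrated stress response, kinases that sense amino acid shortage, unfolded protein, viral RNA or lack of heme phosphorylate the translation factor eIF2alpha. General translation then slows, while the messenger RNAs of ATF4 and ATF5 are translated better through upstream reading frames. ATF4 pairs with C/EBP proteins and other partners at C/EBP-ATF composite elements and raises genes of amino acid supply, among them asparagine synthetase and the serine synthesis enzymes. In hepatocytes this response is known from diets short of an essential amino acid. Because ATF4 is controlled largely at translation, the level of its messenger RNA is not a measure of its protein.

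In the Fra1 mutants, Asns rose and no other member passed the test. That was 1 of 9 tested members called at an adjusted p under 0.05 (edgeR quasi-likelihood test, Benjamini-Hochberg adjustment over 14076 genes). Of all tested genes 3.84% were called in this comparison, 2.9% higher and 0.938% lower. The median log2 fold change was −0.11 over the 9 members and 0.01 over all tested genes. In 2 of the 9 members, Asns and Atf5, the Fra1 mutants did not overlap their controls, against 21.7% of all tested genes. An unadjusted p under 0.05 was found in Fra1 for 2 of the 9 members and 2296 of the 14076 tested genes. In the Fra2 mutants, 0 of 9 members were called. There 0 members and 1613 of the 14076 genes had an unadjusted p under 0.05. The background there was 1.07% called, with 0.845% higher and 0.22% lower. The median log2 fold change was −0.21 over the members and −0.01 over all genes. Only Atf5 had groups that did not overlap in the Fra2 comparison, where 17.5% of tested genes had such groups. With DESeq2 the members called were 2 in Fra1, Asns and Atf5, and 0 in Fra2.

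Asns (ENSMUSG00000029752.12, chr6:7675169-7693254, minus strand, GRCm38) encodes asparagine synthetase, which makes asparagine from aspartate and glutamine. Raw counts were 14, 17 and 20 in the Fra1 controls and 169, 1615 and 400 in the Fra1 mutants. As CPM these were 0.914, 0.835 and 1.08 in the controls and 9.24, 85.1 and 20.3 in the mutants. Every Fra1 mutant lay above every Fra1 control. The controls lay close together, with the highest 1.29 times the lowest, whereas the mutants differed 9.2-fold among themselves. The group means were 0.942 CPM ± 0.123 (SD, n = 3) and 38.2 CPM ± 40.9 (SD, n = 3). Asns rose by a log2 fold change of 5.33 ± 1.12 (SE), a 40.3-fold rise with a 95% interval of 7.29-fold to 223-fold, and the edgeR adjusted p was 0.0241.

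The size of the Asns rise depended on the second mutant and the call on each control. Without Fra1 mutant 2 the log2 fold change was 3.96, with an adjusted p of 0.0472. Without Fra1 control 1, 2 or 3 it was 5.30, 5.25 or 5.42, with an adjusted p of 0.112, 0.103 or 0.0929, and the call was lost. It was lost also by limma-voom (4.72, adjusted p = 0.126) and with no filter on low counts (5.34, adjusted p = 0.103). Fra1 mutant 2 also held low counts of pancreatic acinar transcripts, a cell type in which Asns is abundant. It had 9 counts of Ctrb1 and 4 each of Cpa1, Prss2 and Pnlip, against 0 of all 4 in Fra1 mutants 1 and 3 and in the 3 Fra1 controls. Over the 12 acinar markers the summed level was 12.8 to 22.1 CPM in the Fra1 mutants and 19.3 to 27.7 CPM in their controls, most of it Cela1. Of the 12 markers, 1 was at 0 in Fra1 mutant 2, 9 in Fra1 mutant 1, which held 1 count of Cel, and 10 in Fra1 mutant 3 and in each Fra1 control. The part of such transcripts in the Asns level was not tested. In whole tissue, a change in the number of cells that express a gene and a change in RNA per cell cannot be told apart.

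In the Fra2 strain, Asns had CPM of 9.61, 2.01 and 0.864 in the controls and 18.1, 4.25 and 8.26 in the mutants. The groups overlapped through Fra2 control 1, which exceeded 2 of the 3 mutants. The means were 4.16 CPM ± 4.75 (SD, n = 3) and 10.2 CPM ± 7.13 (SD, n = 3). The log2 fold change was 1.29 ± 0.93 (SE), with a 95% interval of −0.76 to 3.35 and an edgeR adjusted p of 0.67. Without Fra2 control 1 it was 2.82 (adjusted p = 0.316), and without Fra2 mutant 1 it was 0.59 (adjusted p = 0.914). By group mean, Asns stood highest in the Fra1 mutants, then in the Fra2 mutants, the Fra2 controls and the Fra1 controls. Each neighbouring pair in that order overlapped in range. The Fra1 mutants began at 9.24 CPM and the Fra2 mutants reached 18.1 CPM, and the Fra2 controls began at 0.864 CPM while the Fra1 controls reached 1.08 CPM.

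**Figure D1:**
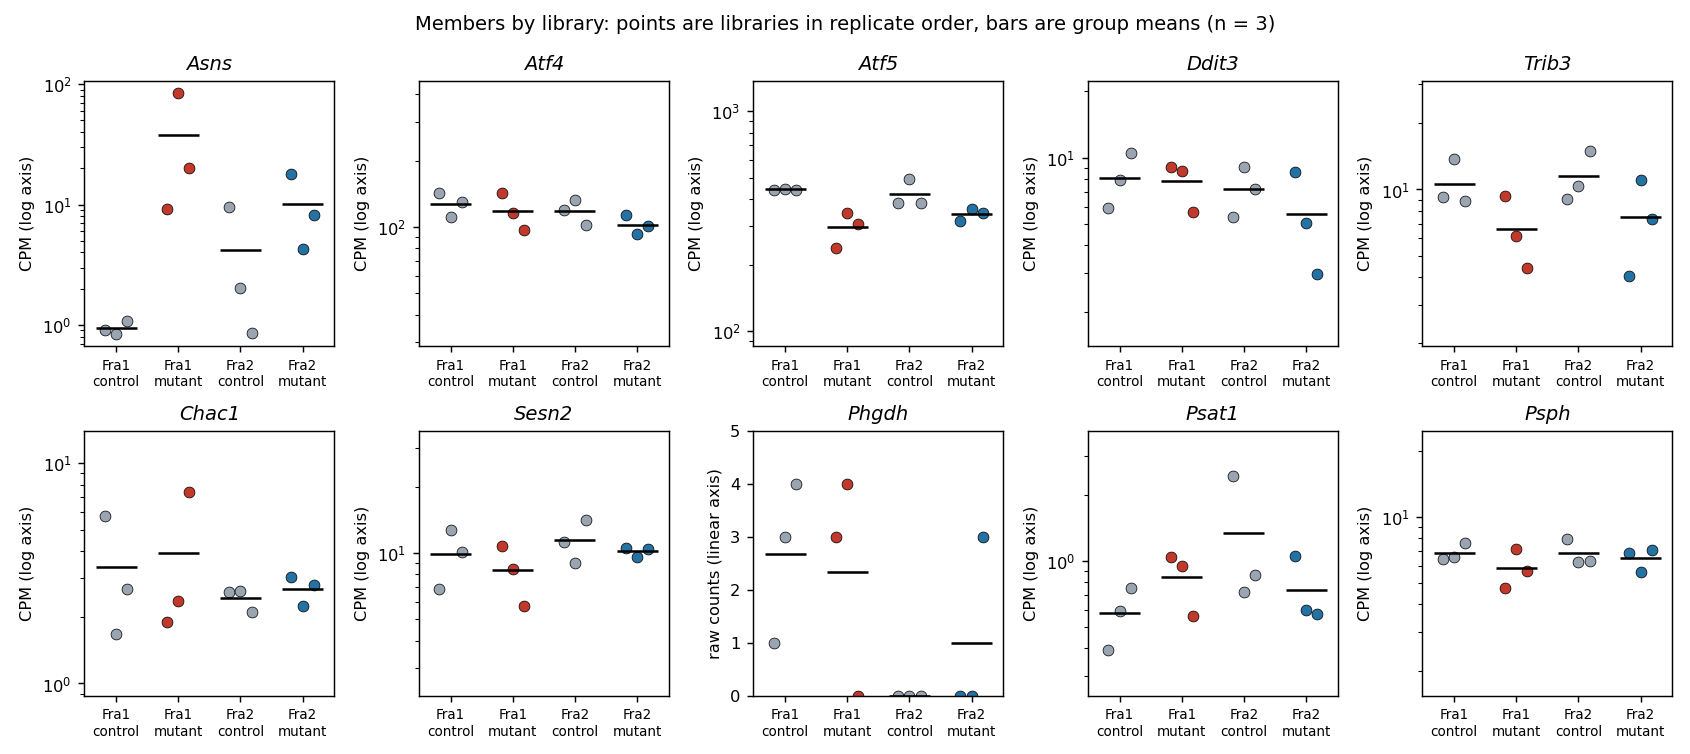
Level of each of the 10 genes in every library, as CPM on a log axis (Phgdh as raw counts on a linear axis), by group. Points are libraries in replicate order and bars are group means (n = 3). Asns spans 9.24 to 85.1 CPM in the Fra1 mutants and 0.835 to 1.08 CPM in their controls, while the groups of Atf4, Ddit3, Trib3, Chac1, Sesn2, Psat1 and Psph overlap within each strain.

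Sequences around the transcription start were read for the members from RefSeq (GRCm38.p6), in windows of 300 bases, 250 before the start and 50 from it. All 10 members had a window, 12 windows in all. The letters TGATGNAA, a core of the C/EBP-ATF composite element, were searched on both strands and occurred in 3 of the 12 windows, 1 each of Asns, Chac1 and Trib3. Of all 32851 RefSeq windows, 3.97% held them. The letters TGANTCA are a loose form, with any base at N, of the AP-1 element that Fra-1 and Fra-2 bind together with Jun proteins. They occurred in 1 of the 12 windows, that of Ddit3, and in 7.81% of all windows. These 4 stretches are shown because they hold the matches, which are in capitals and run 5′ to 3′ on the strand of the gene. The stretch of Asns is chr6:7693225-7693409 (minus strand) and its match begins 23 bases before the RefSeq start. The match of Chac1 begins 193 bases and that of Ddit3 242 bases before the start, while that of Trib3 begins downstream, at base 15 counted with the start as base 1. In human cells an element with this core in the ASNS promoter is known to be bound by ATF4. The stretch of Chac1 is chr2:119351019-119351086 (plus strand), that of Trib3 chr2:152344028-152344057 (minus strand) and that of Ddit3 chr10:127290543-127290607 (plus strand). The gene coordinates given elsewhere in this text, from GENCODE, start Asns at 7693254 and Trib3 at 152344032. By those starts the Asns match lies inside the gene and the Trib3 match before its start. A match describes the letters of the genome and is not a measured binding site.
Asns: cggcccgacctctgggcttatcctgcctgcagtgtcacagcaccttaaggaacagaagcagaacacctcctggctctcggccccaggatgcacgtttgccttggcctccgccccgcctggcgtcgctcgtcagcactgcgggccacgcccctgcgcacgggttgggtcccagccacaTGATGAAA
Chac1: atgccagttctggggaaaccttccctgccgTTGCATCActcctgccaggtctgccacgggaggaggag
Trib3: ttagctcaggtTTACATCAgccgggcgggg
Ddit3: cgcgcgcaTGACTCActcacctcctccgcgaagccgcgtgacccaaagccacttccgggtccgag

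Among the 3 genes with the C/EBP-ATF letters, Asns was called in the Fra1 mutants and Chac1 and Trib3 were not. Ddit3, the gene with the AP-1 letters, was not called in either strain.

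Of the transcription factors, none was called, and Atf5 came nearest to the threshold. Atf4 (ENSMUSG00000042406.8, chr15:80255184-80257541, plus strand) encodes the central factor of the response. Its CPM were 142, 111 and 130 in the Fra1 controls and 143, 116 and 96.9 in the Fra1 mutants. They were 120, 132 and 102 in the Fra2 controls and 113, 92.6 and 101 in the Fra2 mutants. Controls and mutants overlapped in both strains. The log2 fold change was −0.11 ± 0.16 (SE), interval −0.45 to 0.24, in Fra1 (edgeR adjusted p = 0.804) and −0.21 ± 0.16 in Fra2 (adjusted p = 0.686). The Fra1 interval covers changes from 0.73-fold to 1.18-fold, the Fra2 interval from 0.677-fold to 1.1-fold.

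Atf5 (ENSMUSG00000038539.15, chr7:44812256-44816658, minus strand) encodes a related factor that is abundant in liver and acts on mitochondrial stress genes. Its CPM were 441, 445 and 440 in the Fra1 controls and 240, 344 and 309 in the Fra1 mutants. They were 385, 491 and 383 in the Fra2 controls and 317, 360 and 346 in the Fra2 mutants. In both strains every mutant lay below every control of its strain. For Atf5 the log2 fold change was −0.57 ± 0.15 (SE) in Fra1, with an edgeR adjusted p of 0.06, and −0.30 ± 0.15 in Fra2, with an adjusted p of 0.482. The Fra1 change was called by DESeq2 (adjusted p = 0.00395) and, by edgeR, without Fra1 mutant 2 (−0.69, adjusted p = 0.0398). Atf5 overlaps Il4i1 and Nup62, which lie on the opposite strand, and whether the counting used strand is not stated in the labels. Il4i1 held 254 and Nup62 2818 counts over the 12 libraries, while Atf5 held 16996 in the Fra1 mutants alone.

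Ddit3 (ENSMUSG00000025408.15, chr10:127290774-127296288, plus strand) encodes CHOP, a factor linked to cell death under prolonged stress. Its CPM were 5.88, 7.91 and 10.5 in the Fra1 controls and 9.08, 8.69 and 5.69 in the Fra1 mutants. They were 5.36, 9.1 and 7.23 in the Fra2 controls and 8.64, 5.07 and 2.96 in the Fra2 mutants. The groups overlapped in both strains, and Fra2 mutant 3 was the lowest of the 12 libraries. The log2 fold changes were −0.06 ± 0.36 (edgeR adjusted p = 0.96) and −0.38 ± 0.37 (adjusted p = 0.775). The Fra1 interval, from 0.554-fold to 1.67-fold, leaves room for moderate changes in either direction. Ddit3, with 1582 counts over the 12 libraries, overlaps Mars (17891 counts) and Gm4189 (140 counts) on the opposite strand.

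Of the other target genes of the response, Trib3, Chac1 and Sesn2 were not called. Trib3 (ENSMUSG00000032715.9, chr2:152337422-152344032, minus strand) encodes a pseudokinase that binds ATF4 and dampens it. Its CPM were 9.21, 13.8 and 8.83 in the Fra1 controls and 9.35, 6.16 and 4.42 in the Fra1 mutants. They were 9.06, 10.4 and 15.0 in the Fra2 controls and 4.03, 11.1 and 7.32 in the Fra2 mutants. In each strain 2 mutants lay below all controls and 1 lay among them. The log2 fold changes were −0.68 ± 0.37 (edgeR adjusted p = 0.401) and −0.62 ± 0.37 (adjusted p = 0.592).

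Chac1 (ENSMUSG00000027313.3, chr2:119351229-119354381, plus strand) encodes an enzyme that breaks down glutathione. Its CPM were 5.75, 1.67 and 2.69 in the Fra1 controls and 1.91, 2.37 and 7.41 in the Fra1 mutants. Fra2 values were 2.6, 2.62 and 2.11 in the controls and 3.04, 2.24 and 2.8 in the mutants. A single high library stood out in each Fra1 group, and the groups overlapped in both strains. The log2 fold changes were 0.23 ± 0.52 (edgeR adjusted p = 0.882) and 0.14 ± 0.53 (adjusted p = 0.96), with intervals of 0.531-fold to 2.57-fold and 0.491-fold to 2.47-fold.

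Sesn2 (ENSMUSG00000028893.8, chr4:132492032-132510501, minus strand) encodes sestrin 2, a leucine sensor that restrains mTORC1. Its CPM were 6.86, 12.8 and 10.1 in the Fra1 controls and 10.8, 8.48 and 5.74 in the Fra1 mutants. They were 11.2, 9.04 and 14.1 in the Fra2 controls and 10.6, 9.65 and 10.4 in the Fra2 mutants. The groups overlapped in both strains, and the Fra2 mutants lay inside the range of their controls. The log2 fold changes were −0.26 ± 0.27 (edgeR adjusted p = 0.69) and −0.16 ± 0.26 (adjusted p = 0.886).

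Of the serine synthesis enzymes, Phgdh and Psat1 were low in these livers. Psat1 and Psph were tested and not called, and Phgdh was not tested. Phgdh (ENSMUSG00000053398.11, chr3:98313170-98339990, minus strand) encodes phosphoglycerate dehydrogenase, the entry enzyme of the pathway. It had 1, 3 and 4 counts in the Fra1 controls and 3, 4 and 0 in the Fra1 mutants. In the Fra2 strain it had 0, 0 and 0 counts in the controls and 0, 0 and 3 in the mutants. No group held more than 8 counts in sum, so no fold is given. The sum of 0 in the Fra2 controls allows a level of up to 0.055 CPM (3 counts over the group, counting error only).

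Psat1 (ENSMUSG00000024640.9, chr19:15904678-15947337, minus strand) encodes phosphoserine aminotransferase, the next enzyme. Its counts were 6, 12 and 14 in the Fra1 controls, 19, 18 and 11 in the Fra1 mutants, 44, 13 and 16 in the Fra2 controls and 18, 11 and 11 in the Fra2 mutants. Fra2 control 1, at 2.43 CPM, was the highest of the 12 libraries, as it was the highest control for Asns. The groups overlapped in both strains. The log2 fold changes were 0.53 ± 0.52 in Fra1 (edgeR adjusted p = 0.667) and −0.86 ± 0.49 in Fra2 (adjusted p = 0.572). Without Fra2 control 1 the Fra2 value was −0.11.

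Psph (ENSMUSG00000029446.14, chr5:129765558-129787449, minus strand) encodes phosphoserine phosphatase, which completes serine synthesis. Its CPM were 6.4, 6.58 and 7.59 in the Fra1 controls and 4.76, 7.16 and 5.69 in the Fra1 mutants. They were 7.95, 6.2 and 6.32 in the Fra2 controls and 6.83, 5.62 and 7.06 in the Fra2 mutants. The 12 libraries lay within a narrow band, and the groups overlapped in both strains. The log2 fold changes were −0.22 ± 0.19 (edgeR adjusted p = 0.615) and −0.07 ± 0.19 (adjusted p = 0.94), with intervals of 0.64-fold to 1.14-fold and 0.714-fold to 1.27-fold. Psph overlaps Cct6a, a more highly counted gene on the opposite strand.

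**Figure D2:**
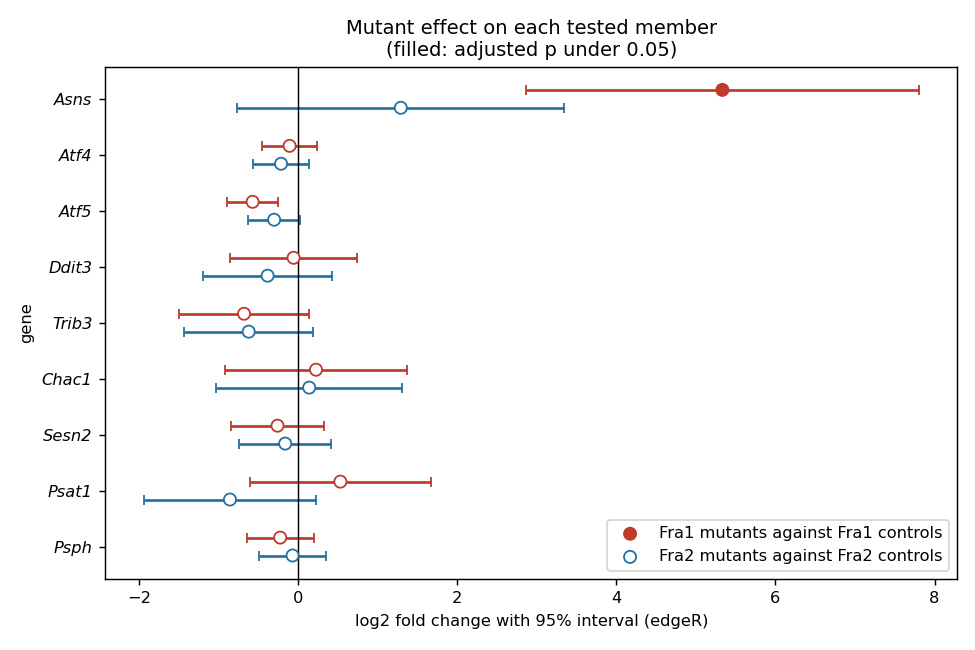
Log2 fold change of mutants against controls, with its 95% interval, for the 9 tested members in each strain (edgeR, n = 3 per group). Filled points are called. Only the Fra1 value of Asns, 5.33 with an interval of 2.87 to 7.80, is filled, and the Atf5 interval in Fra1, −0.89 to −0.25, also lies below 0.

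Levels of different members were compared per length, as CPM per kilobase of merged exons. In the Fra1 controls Atf5 was the highest at 222 and Atf4 the second at 54.1, followed by Trib3 at 4.99 and Ddit3 at 4.73. Asns ranked 8 of the 10 genes there, at 0.345 CPM per kilobase, above only Psat1 and Phgdh. In the Fra1 mutants Asns ranked 3, at 14.0 ± 15.0 (SD, n = 3) CPM per kilobase. It ranked 7 in the Fra2 controls at 1.52, and 8 at 0.525 without Fra2 control 1. Asns ranked 3 in the Fra2 mutants at 3.73, where Trib3 (3.52) and Ddit3 (3.24) were within its spread.

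The mutant effects of the strains were then compared, as the Fra2 effect minus the Fra1 effect. None of the 9 members was called, against 0.0355% of all tested genes. Asns had the lowest unadjusted p of the members, 0.0161, with a difference of −4.04 ± 1.42 (SE) on the log2 scale and an edgeR adjusted p of 0.665. Its interval ran from −7.17 to −0.92, and the difference was −2.51 without Fra2 control 1 and −2.67 without Fra1 mutant 2. A call in Fra1 and none in Fra2 is therefore not shown to be a difference between the strains. For Psat1 the difference was −1.39 ± 0.72 (adjusted p = 0.819), and −0.64 without Fra2 control 1. For the other 7 members it lay between −0.33 and 0.27.

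The Fra2 controls were compared with the Fra1 controls. None of the 9 members was called, and 0% of all tested genes were. An unadjusted p under 0.05 was found for 753 of 14076 tested genes and for 1 of the 9 members, Psat1. That threshold passes about 0.05 of tests where nothing differs, so the count does not show a difference between the controls. DESeq2 called 17 genes. Psat1 was 1.19 ± 0.51 (SE) higher on the log2 scale in the Fra2 controls (edgeR adjusted p = 0.866), and 0.44 without Fra2 control 1. The corresponding difference of Asns was 2.14 ± 1.10 (adjusted p = 0.866), and 0.60 without that library. Fosl2, which is not a member, was 1.47 ± 0.41 higher in the Fra2 controls (edgeR adjusted p = 0.866). Every Fra2 control lay above every Fra1 control in Fosl2.

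The surrounding pathways were described with 5 further lists of 116 genes, of which 110 were tested. In the Fra1 mutants 3 of the 110 genes were called, all higher, which is 2.73% against the background of 3.84%. In the Fra2 mutants 1 was called, which is 0.909% against 1.07%. None was called for the difference or between the controls. None of 17 genes for eIF2alpha kinases, phosphatases and ATF4 partners was called in either strain, with median log2 fold changes of −0.09 in Fra1 and 0.02 in Fra2. Likewise 0 of 20 cytosolic aminoacyl-tRNA synthetases (medians 0.07 and 0.09) and 0 of 25 genes of serine, glycine and folate metabolism (medians −0.04 and 0.07) were called. The medians of all tested genes were 0.01 and −0.01.

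Among 24 tested further targets of ATF4, Gpt2 and Vldlr rose in the Fra1 mutants and 0 genes were called in the Fra2 mutants. The called share was 8.33% in Fra1, against 3.84% of all tested genes, and 0% in Fra2, against 1.07%. The list's medians were 0.05 and −0.19. Gpt2 encodes the mitochondrial alanine aminotransferase. Its CPM were 345, 331 and 345 in the Fra1 controls and 958, 712 and 774 in the Fra1 mutants, with no overlap. The log2 fold change was 1.26 ± 0.22 (SE; edgeR adjusted p = 0.00768). In Fra2 animals Gpt2 had 390, 400 and 615 CPM in the controls and 674, 1030 and 679 in the mutants, also without overlap. The log2 fold change there was 0.76 ± 0.22, with an adjusted p of 0.152 by edgeR and 0.0288 by DESeq2.

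Vldlr, the receptor for very low density lipoprotein, had 1.5, 3.44 and 0.753 CPM in the Fra1 controls and 8.64, 41.1 and 5.18 in the Fra1 mutants. As for Asns, the mutants lay above the controls and Fra1 mutant 2 was the highest. Its log2 fold change was 3.25 ± 0.76 (SE; edgeR adjusted p = 0.0396). The call was lost in 7 of 14 settings, among them leaving out Fra1 control 1, 2 or 3 (adjusted p = 0.16, 0.0533 or 0.127). Without Fra1 mutant 2 the log2 fold change of Vldlr was 1.85, with an adjusted p of 0.0869. In the Fra2 strain the log2 fold change was 1.00 ± 0.74 (adjusted p = 0.685).

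Asrgl1 was the called gene among 26 other amino acid enzymes of the liver, in both strains. That is 3.85% of the list, against 3.84% of all tested genes in Fra1 and 1.07% in Fra2. Asrgl1 encodes an asparaginase-like enzyme that cleaves asparagine and isoaspartyl peptides. Its CPM were 12.9, 10.8 and 13.3 in the Fra1 controls and 50.9, 48.1 and 47.6 in the Fra1 mutants. They were 9.39, 19.4 and 13.3 in the Fra2 controls and 34.4, 39.5 and 30.6 in the Fra2 mutants. All mutants lay above all controls of their strain, and within the mutant groups the libraries lay close together, unlike those of Asns. The rise was 1.99 ± 0.22 (SE) on the log2 scale in Fra1 (edgeR adjusted p = 0.000436) and 1.31 ± 0.21 in Fra2 (adjusted p = 0.0155). The Fra2 call was lost without Fra2 control 3 (adjusted p = 0.0704), without Fra2 mutant 2 (0.0638) and when only the Fra2 libraries were fitted (0.0872). Aspg, a further asparaginase chosen after its values were seen, had log2 fold changes of −0.36 ± 0.18 in Fra1 (adjusted p = 0.354) and −0.19 ± 0.18 in Fra2 (adjusted p = 0.774).

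**Figure D3:**
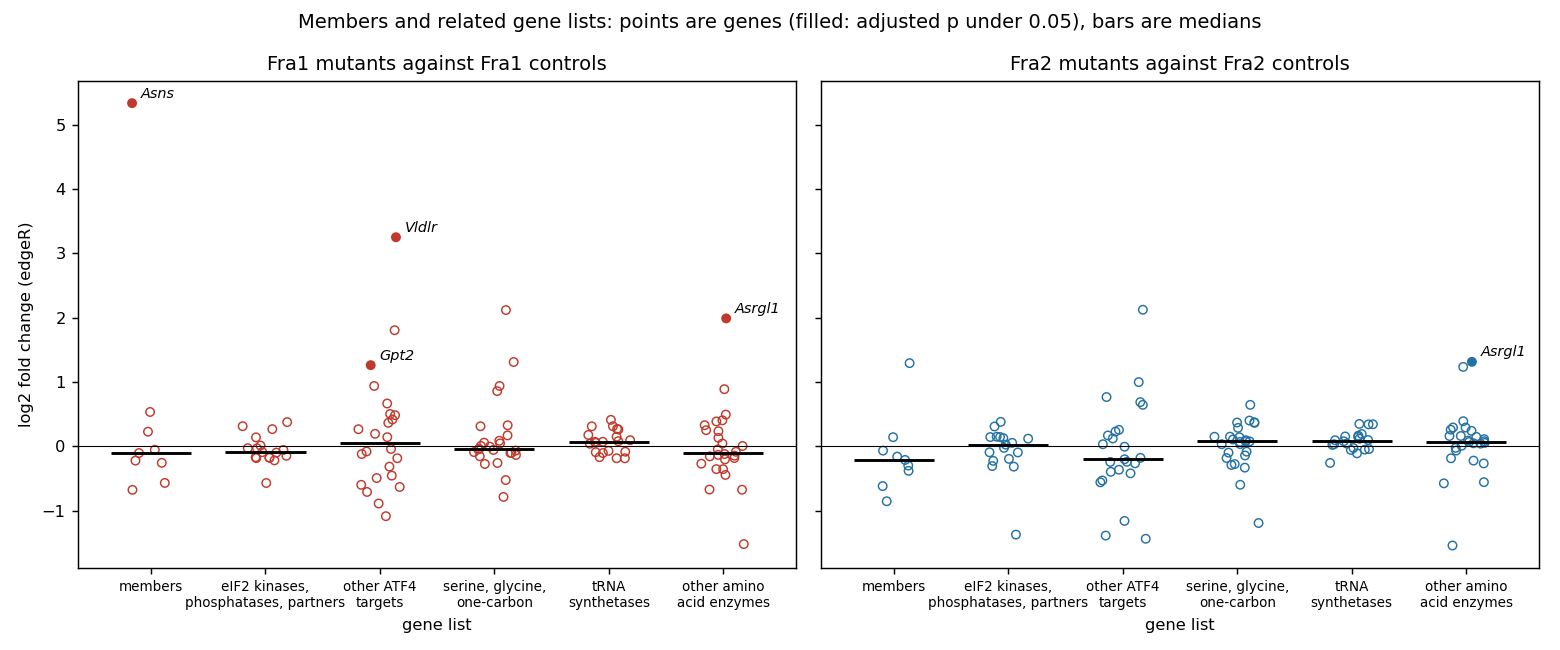
Log2 fold change (edgeR) of each tested gene of the 10 members and of the 5 further lists, in the Fra1 mutants (left) and the Fra2 mutants (right). Points are genes, filled where called, and bars are list medians. Asns, Gpt2, Vldlr and Asrgl1 are filled on the left and Asrgl1 on the right, while the list medians lie between −0.21 and 0.09.

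Markers of other cells were read beside these lists. The 14 stellate and endothelial markers summed to 379 to 470 CPM in the Fra1 controls and 512 to 633 CPM in the Fra1 mutants, and 2 of them, Dcn and Lum, rose in the Fra1 mutants. The called share of these 14 markers was 14.3%, against 3.84% of all tested genes. Of all tested genes, 21.7% had Fra1 groups that did not overlap. The sums of these 14 markers in the Fra2 strain, 454 to 556 in the controls and 399 to 484 in the mutants, overlapped. The sums of 12 macrophage, 12 lymphocyte and 10 biliary markers overlapped between mutants and controls in both strains, and 0 of those genes were called. Signs were nonetheless one-sided in places. All 10 tested lymphocyte markers had positive log2 fold changes in Fra1 (median 0.58), with sums of 18.7 to 41.3 CPM in the controls and 29.5 to 67.7 CPM in the mutants. All 12 macrophage markers had positive values in Fra2 (median 0.27), with sums of 334 to 812 CPM in the controls and 566 to 766 CPM in the mutants. The hepatocyte markers, whose sums in Fra2 did not overlap, had a median log2 fold change of 0.02 in Fra2 and −0.13 in Fra1, and 0 of 11 were called in either strain. The part of these cells in the changes of Asns, Gpt2, Vldlr and Asrgl1 was not tested.

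**Figure D4:**
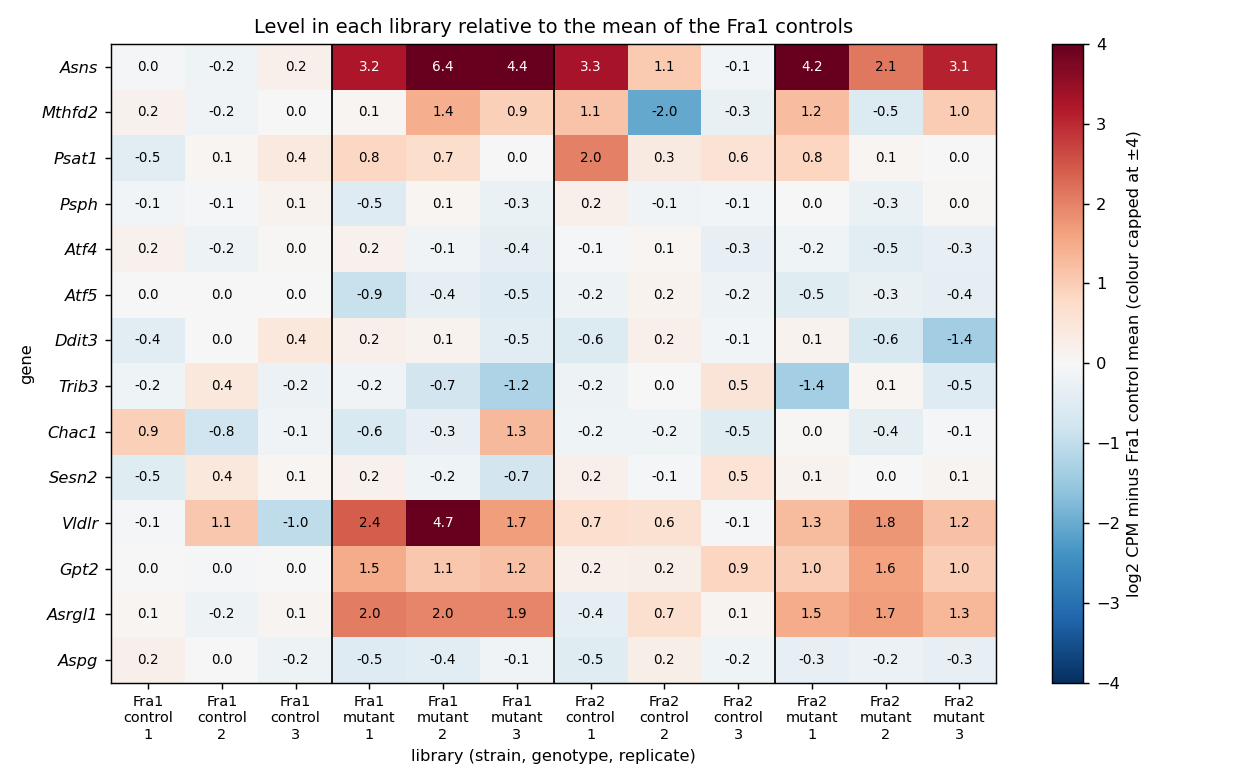
Level of 14 genes in each of the 12 libraries as log2 CPM minus the mean log2 CPM of the Fra1 controls, with colour capped at ±4. Asns is high in all mutants and in Fra2 control 1, Asrgl1 and Gpt2 are high in every mutant library, and Atf4 stays near 0. Gpt2 in Fra2 control 3 (0.855) is close to its lowest Fra2 mutant (0.987).

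Genes that followed Asns from library to library were ranked by Pearson's r of log2 CPM deviations from the group means, over 12 libraries and 12781 protein-coding genes. The 5 highest were Tspyl4 (r = 0.939), Arpc1b (0.937), Foxa3 (0.936), Kifap3 (0.93) and Grk5 (0.93). Foxa3 encodes a liver transcription factor, Arpc1b a subunit of the actin-nucleating Arp2/3 complex and Grk5 a receptor kinase. Of the pathway genes, Cars (cysteinyl-tRNA synthetase) ranked 9 with r of 0.915, Psph 29 with 0.876 and Slc1a5, a glutamine transporter, 50 with 0.851. Mthfd2, a mitochondrial folate enzyme, had r of 0.70 and Psat1 0.60, whereas Atf4 had 0.13 and Trib3 −0.65. Pathway genes also lay at the opposite end, with Dmgdh at −0.915, Shmt1 at −0.855 and Gpt2 at −0.789. Asrgl1 had −0.463 and Vldlr 0.437. These values describe deviations that share libraries and in which Fra1 mutant 2 and Fra2 control 1 lie far from their group means, and no test was made of them.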

How the data were processed

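The deposited table holds whole-number read counts per gene for 12 liver libraries, not normalized. STAR 2.6.1a and RSEM are named in the submitters' processing notes, as are bedtools 2.27.1, DESeq2 1.22.2 and the build GRCm38 (mm10). The labels' protocols describe a dUTP stranded polyadenylated RNA kit. The tool of the counting step, its annotation, strand setting and handling of multiply mapped reads were not given in the sources used. Groups came from the titles. Littermates were separate mice, and no pair of libraries within a group agreed within sampling noise.

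From the counts, genes were kept by filterByExpr (14076 genes), scaled by TMM factors and fitted with 4 group means in edgeR 4.0.16 (R 4.3.3, robust quasi-likelihood fit over 12 libraries). A gene was called where its two-sided p, after Benjamini-Hochberg adjustment over all tested genes, was under 0.05. CPM use scaled library sizes, and intervals are at 95%. Each SE was derived from the edgeR test, as the absolute log2 fold change divided by the square root of the F statistic. The intervals built on it therefore restate the unadjusted p of that test. The precision of low genes is set by counting error as well as by the spread between mice. The alternatives were RLE factors, no scaling, limma-voom (limma 3.58.1), DESeq2 1.42.0, a filter of 1 CPM in at least 3 libraries, no filter, a block for the replicate number, a fit of only the libraries compared, and each library left out. The scripts were tested on simulated data.

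The 10 members and the lists were chosen with earlier results of these data known. Besides the members, Fosl1 and Fosl2, the text names up to 4 called genes per list with the smallest adjusted p, and the 5 genes most like Asns. Genes named outside that rule were chosen after their values were seen. Gene coordinates are from GENCODE M21 (GRCm38), in which 54673 of 55421 identifiers matched with their version. Promoter windows are from RefSeq.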

Additional observations from a re-analysis of the deposited data

How the results depend on the processing

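Members called in the Fra1 mutants were 1, against 2 with DESeq2, 0 with limma-voom, 0 with no filter on low counts and 0 to 2 with a library left out. Over all genes, the 540 calls in Fra1 became 1021 with DESeq2 and 267 to 434 with a library left out. The 150 calls in Fra2 became 448 with DESeq2, 90 with only the libraries compared and 53 to 113 with a library left out. The 5 calls for the difference became 71 with DESeq2, 9 with no filter and 0 to 13 with a library left out. The 0 calls between the controls became 17 with DESeq2, 3 with no filter and 0 to 1 with a library left out. With the replicate block, Fra2 calls were 98, and the log2 fold change of Asns in Fra1 was 4.85 (adjusted p = 0.023). The numbers come from the titles, and the labels do not say that they pair the mice. Deviations of mice with the same number correlated at −0.112 to 0.0536. With 3 mice per group, such values cannot decide whether the mice were paired. With no scaling factor, the median of all genes in Fra1 moved from 0.01 to 0.15 and the share of calls that were higher from 75.6% to 86.9%. Uncalled Fra1 values then changed sign for Atf4 (0.0413) and Ddit3 (0.0733). With a library left out, uncalled values crossed 0 in Fra1 for Atf4 (−0.27 to 0.00377), Ddit3 (−0.25 to 0.16), Chac1 (−0.66 to 0.83) and Fosl2 (−0.0638 to 0.22). In Fra2 they did so for Psph (−0.13 to 0.0552), Sesn2 (−0.31 to 0.0169), Fosl1 (−1.50 to 1.32) and Aspg (−0.35 to 0.0212). The cause of these shifts was not tested. Over its 14 alternatives Asns in Fra1 stayed between 3.96 and 5.79, with adjusted p from 9.22e-06 to 0.126, and was called in 9. Depth limited Phgdh, with at most 4 counts in a library, and Psat1, with at most 44.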

Other observations

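Further genes of the lists lay far from 0 without passing the test, and were chosen after their values were seen. Otc, the urea cycle enzyme ornithine transcarbamylase, had log2 fold changes of −1.52 ± 0.64 in the Fra1 mutants (edgeR adjusted p = 0.267) and −1.54 ± 0.64 in the Fra2 mutants (adjusted p = 0.389). Tnfrsf10b, a death receptor and known target of CHOP, had 1.80 ± 0.56 (adjusted p = 0.111) and 2.12 ± 0.51 (adjusted p = 0.0898). Others of its list of ATF4 targets were lower. Bbc3 had −0.60 ± 0.42 (adjusted p = 0.525) and −1.39 ± 0.43 (adjusted p = 0.203). Vegfa had smaller changes, −0.46 ± 0.13 (adjusted p = 0.0818) and −0.56 ± 0.13 (adjusted p = 0.0738). Of the 24 tested genes of that list, 12 were positive and 12 negative in Fra1, and 10 positive and 14 negative in Fra2. Mthfd1l, a mitochondrial folate enzyme, had 2.12 ± 0.65 in Fra1 (adjusted p = 0.111) and 0.37 ± 0.65 in Fra2 (adjusted p = 0.897). Gdf15, a hormone released under cell stress, had 4.31, 4.77 and 6.3 CPM in the Fra1 controls and 3.28, 2.9 and 1.07 in the Fra1 mutants. In the Fra2 strain it had 4.58, 12.5 and 3.72 CPM in the controls and 2.8, 2.45 and 2.39 in the mutants. In both strains the Gdf15 mutants lay below their controls, with log2 fold changes of −1.09 ± 0.48 (adjusted p = 0.285) and −1.44 ± 0.48 (adjusted p = 0.24). Without Fra2 control 2, the library at 12.5 CPM, the Fra2 value of Gdf15 was −0.70 (adjusted p = 0.708). These are values only, and 21.7% of tested genes in Fra1 and 17.5% in Fra2 had groups that did not overlap.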
